A study of Homo sapiens with 18 samples.

Results

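The dependence of the response to HDM201 on cell state was measured across the genome in IMR90 cells, wild type primary human lung fibroblasts. Of the 18 polyA RNA libraries of the series, 12 entered the comparison, with 3 libraries in each of 4 groups. Prolif_DMSO and Prolif_HDM201 are proliferating cells given the solvent DMSO or HDM201, and IR_DMSO and IR_HDM201 are cells that had been irradiated (IR) and were given the same agents. In the irradiated cells the agents were added on day 4 after IR, kept for 7 days, and the cells were collected on day 11. The timing of treatment in proliferating cells is not given in the labels. The members are genes, and they were chosen by one quantity, the HDM201 by state interaction, which is the log2 change with HDM201 in irradiated cells minus the log2 change in proliferating cells. A negative interaction means that HDM201 lowered the transcript more, or raised it less, in irradiated than in proliferating cells. The same number is the effect of irradiation under HDM201 minus that under DMSO. The interaction was tested for 18151 of 60668 genes, and a gene was called where the adjusted p of edgeR's quasi-likelihood test was under 0.05. All cells came from a single fibroblast line, and nothing in the labels says whether the 3 libraries of a group came from separate cultures. The study counts a single culture well as a biological replicate in its cell experiments, without naming these libraries. The p-values therefore measure the spread between these libraries, which may be technical or between wells of the same line.

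MDM2 is the ubiquitin ligase that binds the transcription factor p53 and sends it for degradation. HDM201 and RG7388 are small molecules that fill the p53 pocket of MDM2, so that p53 accumulates and switches on genes for cell cycle arrest, apoptosis and repair, CDKN1A and MDM2 itself among them. Irradiated fibroblasts become senescent: they stop dividing, keep p53 signalling switched on, and secrete a mixture of cytokines, chemokines, proteases and growth factors, the senescence-associated secretory phenotype (SASP), which is driven largely by NF-kB and C/EBP factors, with an interferon-stimulated arm downstream of cytosolic DNA sensing by cGAS and STING.

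The 12 libraries held between 21609198 and 66647700 counts. Of the 6 groups of the series, 2 held a library that stood apart: Prolif_HDM201 replicate 3 and IR_DMSO replicate 1. The chi-square statistic per gene between Prolif_HDM201 replicate 3 and its partners was 59.4 and 75.3, against 5.62 between those partners, and between IR_DMSO replicate 1 and its partners it was 98.1 and 100, against 3.77. IR_HDM201 replicate 1 differed from its partners by 45.5 and 23.4, against 8.21. IR_DMSO replicate 1 had low mitochondrially encoded transcripts, with MT-CO3 at 200 CPM (counts scaled to the size of the library) against 1820 and 1810 in replicates 2 and 3. Prolif_HDM201 replicate 3 had the proliferation marker MKI67 at 508 CPM against 271 and 253 in its partners, within the 447 to 545 CPM of Prolif_DMSO. Several results are given below with and without them. Markers of fibroblasts summed to between 18900 and 56600 CPM per library and leukocyte markers to between 2.05 and 4.85 CPM. Endothelial markers summed to between 88 and 146 CPM, in which TEK alone was at 78.2 to 135 CPM. Epithelial markers summed to 176 to 195 CPM in IR_DMSO and 304 to 425 CPM in IR_HDM201. This sum includes KRT18, an intermediate filament gene that these fibroblasts express, at between 82.2 and 239 CPM, and KRT19, at between 24.2 and 131 CPM.

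The promoters of a few genes, picked by hand, are shown before their values. The largest groups of state-dependent genes are known targets of a small number of transcription factors, whose part was not tested. Every promoter shown holds its motif, and the shares of promoters that do so are given further below. Each run is the 250 bases before the RefSeq transcription start on the GRCh38.p14 assembly, 5′ to 3′ on the gene's strand, and capitals mark a match to the named motif on either strand. The first set holds matches to the NF-kB motif, the second to the interferon-stimulated response element (ISRE, searched as a repeat of the letters TTTC with a gap of 2 bases), and the last 3 hold a p53 half-site, the cell cycle element CHR (TTTGAA) and the serum response CArG box.
NFKBIA (NF-kB, chr14:35404750-35404999, minus strand): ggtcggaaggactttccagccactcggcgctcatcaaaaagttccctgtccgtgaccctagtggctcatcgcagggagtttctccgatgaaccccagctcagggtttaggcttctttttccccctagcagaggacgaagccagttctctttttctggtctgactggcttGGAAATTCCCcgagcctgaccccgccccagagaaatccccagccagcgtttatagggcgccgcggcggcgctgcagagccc
CXCL1 (NF-kB, chr4:73869143-73869392, plus strand): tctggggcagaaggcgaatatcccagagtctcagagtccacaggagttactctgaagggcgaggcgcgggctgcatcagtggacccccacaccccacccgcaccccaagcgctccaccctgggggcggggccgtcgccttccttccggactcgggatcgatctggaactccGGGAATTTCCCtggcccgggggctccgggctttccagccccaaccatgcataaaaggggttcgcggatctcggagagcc
IL6 (NF-kB, chr7:22726950-22727199, plus strand): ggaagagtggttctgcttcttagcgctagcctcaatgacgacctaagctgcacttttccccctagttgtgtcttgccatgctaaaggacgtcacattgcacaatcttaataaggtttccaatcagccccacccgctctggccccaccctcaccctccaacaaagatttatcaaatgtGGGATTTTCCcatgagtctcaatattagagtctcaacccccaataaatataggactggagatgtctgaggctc
IFIT1 (ISRE, chr10:89392373-89392622, plus strand): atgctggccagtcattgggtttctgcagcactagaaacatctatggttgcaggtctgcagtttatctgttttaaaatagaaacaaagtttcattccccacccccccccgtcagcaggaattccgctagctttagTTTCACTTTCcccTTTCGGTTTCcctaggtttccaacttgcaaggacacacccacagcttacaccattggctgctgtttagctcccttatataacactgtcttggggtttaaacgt
IFI6 (ISRE, chr1:27672193-27672442, minus strand): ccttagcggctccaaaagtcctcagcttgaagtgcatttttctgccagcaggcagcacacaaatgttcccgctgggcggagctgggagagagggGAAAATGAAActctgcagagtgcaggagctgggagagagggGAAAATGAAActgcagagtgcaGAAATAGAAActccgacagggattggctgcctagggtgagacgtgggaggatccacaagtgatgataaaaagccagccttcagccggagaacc
PLK2 (p53 half-site, chr5:58460087-58460336, minus strand): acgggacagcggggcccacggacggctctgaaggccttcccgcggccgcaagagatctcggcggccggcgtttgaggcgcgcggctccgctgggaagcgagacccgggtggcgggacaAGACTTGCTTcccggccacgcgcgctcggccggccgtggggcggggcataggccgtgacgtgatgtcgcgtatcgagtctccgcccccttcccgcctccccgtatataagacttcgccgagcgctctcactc
CDC20 (CHR, chr1:43358731-43358980, plus strand): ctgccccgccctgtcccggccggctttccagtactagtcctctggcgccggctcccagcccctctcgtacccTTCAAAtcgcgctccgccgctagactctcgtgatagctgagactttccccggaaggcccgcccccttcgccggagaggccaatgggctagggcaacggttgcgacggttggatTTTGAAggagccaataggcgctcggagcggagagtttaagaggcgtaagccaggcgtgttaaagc
ACTG2 (CArG box, chr2:73892758-73893007, plus strand): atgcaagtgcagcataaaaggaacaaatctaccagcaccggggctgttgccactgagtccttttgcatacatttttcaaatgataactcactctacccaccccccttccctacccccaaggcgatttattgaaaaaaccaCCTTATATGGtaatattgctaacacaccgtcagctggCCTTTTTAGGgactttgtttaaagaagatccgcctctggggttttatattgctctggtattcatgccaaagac
A match is a description of the letters and not evidence of binding.

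More genes were called for HDM201 in irradiated than in proliferating cells, and 1568 genes (8.64% of those tested) were called for the interaction. Of these, 1029 (5.67%) had a lower and 539 (2.97%) a higher response in irradiated cells. At an unadjusted p under 0.05 there were 3968 genes. Within irradiated cells 1808 genes (9.96%) rose and 2053 (11.3%) fell with HDM201, whereas within proliferating cells 99 genes (0.545%) rose and 28 (0.154%) fell, with 1865 genes at an unadjusted p under 0.05. The median standard error of a log2 change was 0.179 in each state and 0.254 for the interaction. With library totals in place of trimmed mean (TMM) scaling, the median interaction of all genes was -0.15 instead of -0.009, and the called genes split into 322 higher and 1735 lower (15.7% higher, against 34.4% with TMM). The proliferating count depended on which libraries were fitted. It fell from 127 to between 43 and 59 genes without any 1 of the 3 Prolif_DMSO libraries or of replicates 1 and 2 of Prolif_HDM201, and rose to 192 without IR_DMSO replicate 1. Without Prolif_HDM201 replicate 3 it was 1672 genes, and the interaction was then called for 1408 higher and 1535 lower of 18771 genes tested. Without both libraries that stood apart, 1542 higher and 1779 lower of 18341 genes were called, and 2833 in proliferating cells. List counts given below for these fits are to be set against these totals, not against 5.67% and 2.97%. With both libraries that stood apart left out, 494 of the 539 higher and 919 of the 1029 lower genes kept their call and direction. That fit called more genes in total than the main fit. Only 272 of the higher and 641 of the lower genes kept their call in all 12 fits that left out a single library. The rest lost it in at least 1 such fit.

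**Figure D1:**
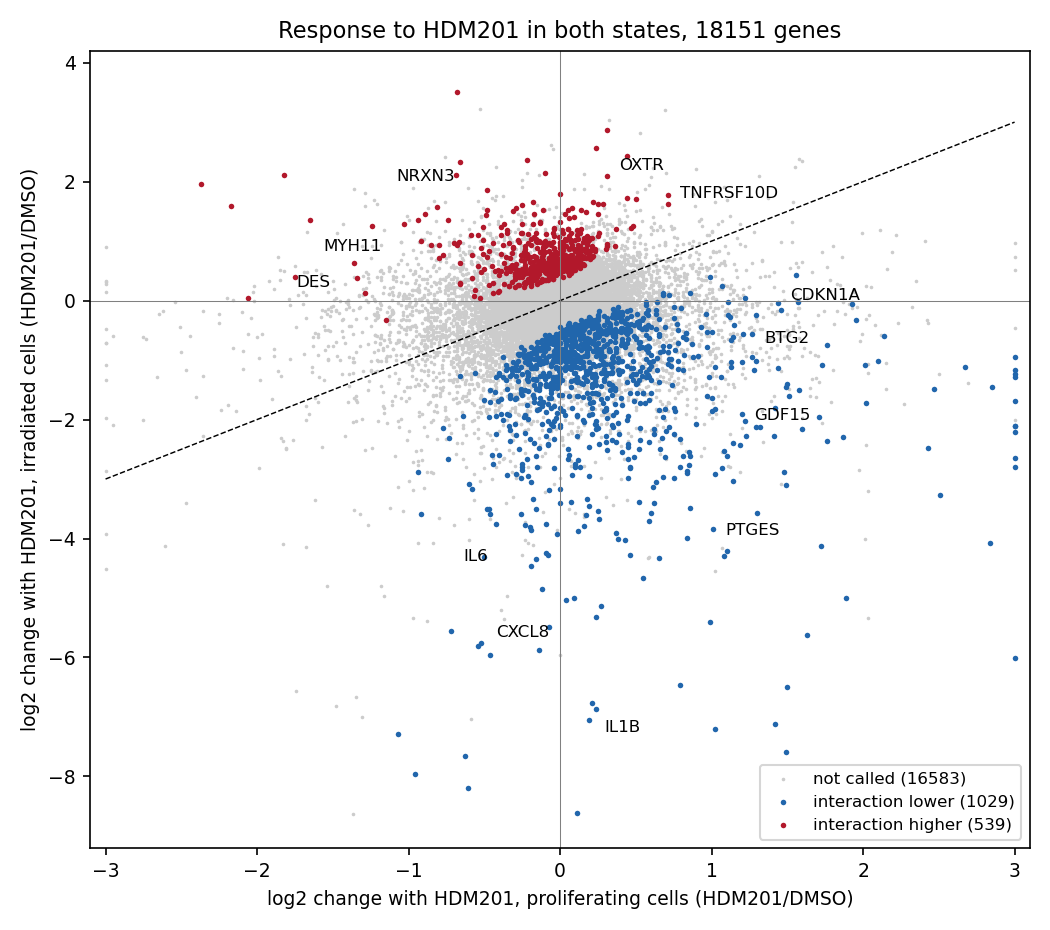
Each of 18151 genes by its log2 change with HDM201 in proliferating cells (x axis) and in irradiated cells (y axis), with the 1029 genes of lower interaction in blue, the 539 of higher interaction in red and all others in grey. The dashed line marks equal responses, and 31 genes beyond the axis limits are drawn at the edge. Called genes lie mostly above and below the origin, since their change in proliferating cells was small.

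The called genes fell into 5 patterns by the calls within each state. A response called in irradiated cells alone accounted for 1394 of the 1568 genes (88.9%), of which 894 had a lower and 500 a higher interaction. Responses were called in proliferating cells alone for 37 genes, in opposite directions for 24, in the same direction with unequal size for 7 and in neither state for 106. These patterns moved with the library that stood apart, and without both such libraries 3321 genes were called, with 1859 in irradiated cells alone, 696 in proliferating cells alone and 332 in opposite directions. A call in only 1 state is not a test of the difference between states, which the interaction is. The 1029 genes of lower interaction had a median interaction of -1.24, with a median change of -1.07 in irradiated and 0.18 in proliferating cells. They had been raised by irradiation under DMSO by a median of 1.00 on the log2 scale and stood at -0.27 under HDM201, quantities that share the libraries from which the genes were chosen. The 539 genes of higher interaction had a median of 0.73 (0.69 in irradiated and -0.06 in proliferating cells), and their irradiation effect was -0.60 under DMSO and 0.14 under HDM201. Changes of 4-fold or more were present for 260 genes on the lower side and 21 on the higher side. Across all 18151 genes the correlation between the responses in both states was 0.036, and across the 3861 genes called in irradiated cells it was 0.099, descriptions across genes that share libraries within each state.

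Cytokines, chemokines and other NF-kB targets were among the groups with the largest state dependence. The list holds mostly secreted proteins and also intracellular ones such as TNFAIP3, NFKBIA, BIRC3 and SOD2. Of its 36 tested members, 26 had a lower and 0 a higher interaction (background 5.67% and 2.97%), with a median of -2.68 that combined -2.80 in irradiated with -0.08 in proliferating cells, against -0.01 for the interaction over all genes. CXCL8, the neutrophil chemokine interleukin-8 (ENSG00000169429.11, chromosome 4, 73740519 to 73743716 on hg38), was measured at 709, 622 and 574 CPM in IR_DMSO and at 12.7, 10.1 and 12.3 CPM in IR_HDM201. In Prolif_DMSO it stood at 8.69, 7.72 and 8.61 CPM and in Prolif_HDM201 at 6.88, 4.49 and 6.14 CPM. The irradiated groups were far apart, and all IR_HDM201 libraries were within 2-fold of the Prolif_DMSO range. Its interaction was -5.24 ± 0.21 (SE, n = 3 libraries per group, edgeR adjusted p = 1.33e-13), made of a change of -5.76 in irradiated and -0.52 in proliferating cells, the last with adjusted p = 0.134.

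IL6, the acute-phase cytokine, gave a like picture, with 112, 159 and 135 CPM in IR_DMSO and 5.58 to 6.94 CPM in IR_HDM201, against 7.03 to 11.0 CPM in all 6 proliferating libraries. The interaction of IL6 was -4.27 ± 0.21 (SE, edgeR adjusted p = 4.64e-12). IL1B, which encodes the upstream cytokine interleukin-1 beta, went from 91.4, 94.6 and 80.9 CPM in IR_DMSO to 0.547, 0.835 and 0.755 CPM in IR_HDM201, below the 1.64 to 2.78 CPM of the proliferating libraries. Its interaction of -7.24 ± 0.33 (SE, edgeR adjusted p = 2.25e-12) was the lowest among genes with at least 0.5 CPM in every group. IL1A, its cell-bound relative, had an interaction of -5.73 (edgeR adjusted p = 4.26e-06). The CXCR2 ligands CXCL1, CXCL5, CXCL6 and CXCL3 were at or below 0.718 CPM in every proliferating library and between 15.0 and 160 CPM in IR_DMSO, then between 0.0439 and 0.486 CPM in IR_HDM201. For CXCL1 the change in irradiated cells was -8.61 (edgeR adjusted p = 5.41e-13). Interactions of genes this low in proliferating cells have wide errors, from 0.57 for CXCL5 to 1.28 for CXCL3.

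TNFAIP3 and NFKBIA, members of the same list, feed back on NF-kB. TNFAIP3, the ubiquitin-editing enzyme A20 that switches NF-kB off, was measured at 83.1, 79.2 and 70.3 CPM in IR_DMSO and 7.45, 6.24 and 5.60 CPM in IR_HDM201, both outside the 10.8 to 15.2 CPM of the proliferating libraries. Its interaction was -3.31 ± 0.18 (SE, edgeR adjusted p = 1.35e-11). NFKBIA, the inhibitor whose promoter is shown above, had an interaction of -2.33. Of 22 regulators of NF-kB and C/EBP, 10 had a lower (45.5%, against 5.67% of all genes) and 0 a higher interaction. They were led by NFKBIZ (-2.36 ± 0.17), an atypical co-activator, then CEBPD (-1.81 ± 0.24), a C/EBP factor, and IRAK2 (-1.77 ± 0.19), a kinase of the interleukin-1 receptor. The subunit genes were unequal: NFKB1 had -0.77 and was called, whereas RELA had 0.09 (adjusted p = 0.837) and RELB -0.58 (adjusted p = 0.0887). The interleukin-1 receptor gene IL1R1 had an interaction of -0.97. The list that holds these regulators has a median of -0.81.

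Interferon-stimulated genes (ISGs), which encode antiviral effectors and their transcription factors, held the largest share of called members of the 24 lists. Of 45 tested ISGs, 40 had a lower (88.9%, against 5.67% of all genes) and 0 a higher interaction. The median was -2.67 (-3.17 in irradiated and 0.00 in proliferating cells). IFIT2, an antiviral RNA-binding protein, was at 55.7, 50.3 and 46.6 CPM in IR_DMSO, at 3.12, 4.61 and 4.44 CPM in IR_HDM201, and between 0.686 and 1.52 CPM in the proliferating libraries. Its interaction was -3.94 ± 0.36 (SE, edgeR adjusted p = 1.15e-07). OAS3, which makes the oligoadenylate messenger that activates RNase L, had an interaction of -3.12 ± 0.27. The error was large for IFIT1 and MX1. IFIT1 was at 149, 147 and 137 CPM in IR_DMSO and 4.41, 12.7 and 6.49 CPM in IR_HDM201, and its interaction of -4.15 ± 1.08 (edgeR adjusted p = 0.0303) lost its call in 13 of 23 alternative fits, with adjusted p up to 0.131. MX1 had -4.20 ± 1.13 (edgeR adjusted p = 0.0355) and lost its call in 11 of 23. The 5 ISGs that missed the threshold, RSAD2, OAS2, OAS1, BST2 and CXCL11, had negative values between -6.01 and -2.50.

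TRIM22, listed as an ISG and also known as a p53-induced gene, differed from the rest of the list. It was at 81.5, 91.0 and 88.3 CPM in IR_DMSO and 85.5, 90.5 and 91.7 CPM in IR_HDM201, overlapping ranges, and it rose from 9.51, 10.2 and 10.5 CPM in Prolif_DMSO to 21.9, 22.7 and 25.5 CPM in Prolif_HDM201. Its interaction of -1.18 therefore came from the proliferating side. Antigen presentation by MHC class I, an output of interferon signalling, shifted by smaller amounts: 9 of 16 tested genes had a lower interaction and 0 a higher, with PSMB9 at -2.30 and PSMB8 at -1.35 (immunoproteasome subunits), TAP1 at -0.97 (the peptide transporter) and HLA-B at -0.96. That is 56.2% of the list, against 5.67% of all genes. The count was 14 of 16 without Prolif_HDM201 replicate 3 and 13 without both libraries that stood apart. Over all genes, 1535 of 18771 and 1779 of 18341 were lower in those fits. HLA-B was at 480, 372 and 350 CPM in IR_DMSO and 171, 216 and 207 CPM in IR_HDM201, with 261 to 347 CPM in proliferating cells. Of 13 genes of the cGAS-STING pathway, 3 had a lower interaction (23.1%, against 5.67% of all genes), namely SAMHD1 (-1.04), IKBKE (-0.95) and ADAR (-0.76). The sensor gene CGAS had -0.18 (adjusted p = 0.712) and STING, under its older symbol TMEM173, 0.34 (adjusted p = 0.333).

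Proteases, prostaglandin enzymes and growth factors of the SASP changed less evenly. Of 42 tested, 20 had a lower (47.6%) and 1 a higher interaction (2.38%), against 5.67% and 2.97% of all genes, with a median of -0.83. Without both libraries that stood apart the counts were 26 and 3, and 1779 and 1542 of all 18341 genes. PTGES, which makes prostaglandin E2, was at 23.9 to 32.5 CPM in IR_DMSO and 1.99, 1.76 and 1.87 CPM in IR_HDM201, while in proliferating cells it went from 0.726, 0.474 and 1.09 CPM to 1.80, 1.37 and 1.57 CPM. The ranges did not overlap in either state and moved in opposite directions, so its interaction of -4.85 ± 0.30 (SE, edgeR adjusted p = 1.3e-10) exceeded its change in irradiated cells. PTGS2, the cyclooxygenase upstream of PTGES, had -3.51 ± 0.27, the epidermal growth factor receptor ligand AREG -3.15 ± 0.26 and the morphogen BMP2 -2.12 ± 0.18. The stromelysins MMP3 and MMP10 and the collagenase MMP1 had -2.65, -2.55 and -1.17. The inhibitors TIMP1 and TIMP2 had -0.05 and 0.09, with adjusted p = 0.903 and 0.783.

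**Figure D2:**
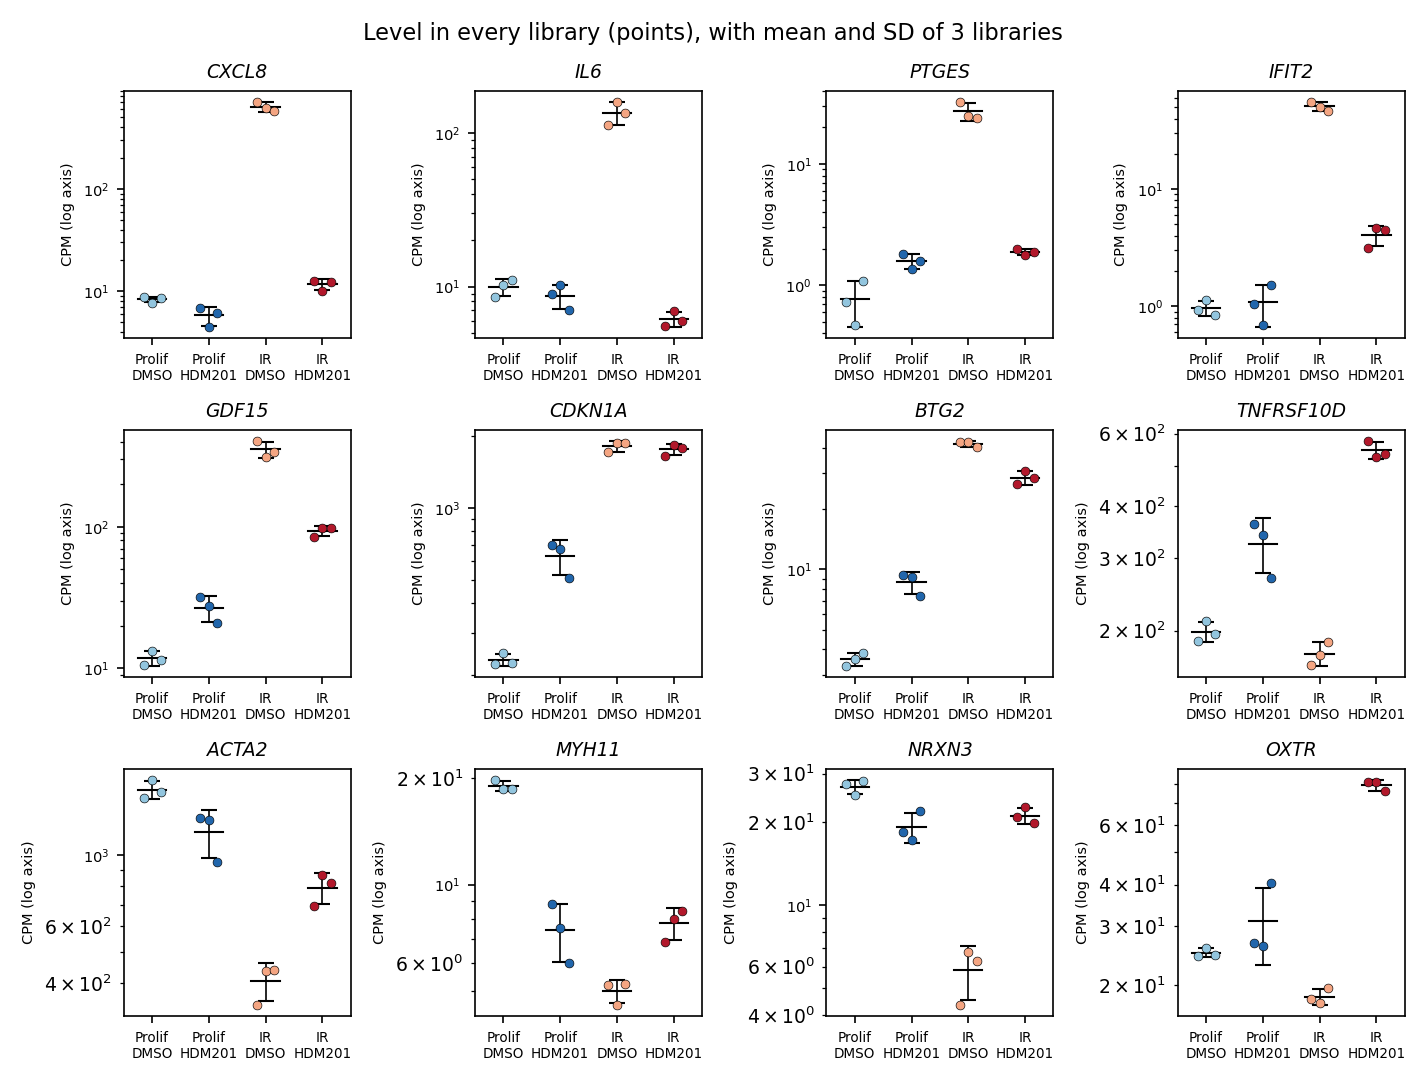
Level of 12 genes in every library, as CPM on a log axis, with points for the 3 libraries of each group, a bar for the mean and whiskers for the SD. CXCL8, IL6 and IFIT2 were high in IR_DMSO only, CDKN1A and BTG2 were already high in IR_DMSO and rose in proliferating cells, and ACTA2, MYH11 and NRXN3 were low in IR_DMSO and higher in IR_HDM201.

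Direct p53 targets also had mostly lower interactions among those called, from changes in both states. Of the called members, 18 fell in irradiated cells alone and 8 rose in proliferating cells alone. Of 79 tested p53 targets, 13 rose and 0 fell in proliferating cells, and 67 of 79 had a positive change. Over all genes 0.545% rose and 0.154% fell there. In irradiated cells 9 of the 79 rose and 26 fell, against 9.96% and 11.3% of all genes, so the 9 are near that share. The interaction was lower for 32 (40.5%) and higher for 1 (1.27%), against 5.67% and 2.97% of all genes. Its median of -0.52 combined 0.32 in proliferating and -0.13 in irradiated cells. Without both libraries that stood apart, 40 of the 79 rose and 3 fell in proliferating cells, and the interaction was lower for 42 and higher for 3. Over all 18341 genes of that fit 1589 rose and 1244 fell in proliferating cells, 1779 were lower and 1542 higher. CDKN1A, the cyclin-dependent kinase inhibitor p21 (chromosome 6), was at 222, 246 and 225 CPM in Prolif_DMSO and 701, 673 and 508 CPM in Prolif_HDM201. In IR_DMSO it was already at 1710, 1870 and 1880 CPM and in IR_HDM201 at 1660, 1840 and 1790 CPM. The irradiated ranges overlapped and the proliferating ranges did not. Its interaction was -1.48 ± 0.15 (SE, edgeR adjusted p = 4.63e-07), from 1.44 in proliferating and -0.04 in irradiated cells (adjusted p = 0.82).

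SPATA18, a p53-regulated gene of mitochondrial quality control, followed the same course, from 3.07, 3.49 and 4.02 CPM to 10.4, 11.1 and 9.75 CPM in proliferating cells and between 35.3 and 43.3 CPM in all 6 irradiated libraries. Of the p53 targets, 8 were called in proliferating cells alone: CDKN1A, SPATA18, the death receptor genes FAS and TNFRSF10B, the decoy receptor TNFRSF10C, the repair factor DDB2, the AKT inhibitor PHLDA3 and CMBL. Without the 2 libraries that stood apart, DDB2 (-0.43) and PHLDA3 (0.31) were also called in irradiated cells. FAS was at 19.9, 19.8 and 21.3 CPM in Prolif_DMSO, 27.1, 29.6 and 45.5 CPM in Prolif_HDM201 and 74.5 to 92.4 CPM in the irradiated libraries, with an interaction of -0.85 (edgeR adjusted p = 0.00777). MDM2, the drug's target and a feedback gene of p53, was at 34.7, 33.7 and 44.8 CPM in Prolif_DMSO and 41.2, 44.1 and 73.0 CPM in Prolif_HDM201, ranges that overlapped, and at 169, 169 and 172 CPM in IR_DMSO and 190, 150 and 147 CPM in IR_HDM201. Its interaction of -0.55 ± 0.25 did not pass the test (edgeR adjusted p = 0.195).

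A further 18 p53 targets were called in irradiated cells alone. These included ATF3, a stress transcription factor that other pathways also induce, with an interaction of -2.34 ± 0.19, the kinase PLK2, whose promoter is printed above, with -1.52, the ferredoxin reductase FDXR with -1.22 and the apoptotic BBC3 with -0.82 ± 0.22. BBC3 lost its call in 6 of 23 alternative fits. HDM201 acts on p53 protein, which these libraries do not measure. The single member with a higher interaction was TNFRSF10D, a decoy receptor for the death ligand TRAIL, which rose in both states: from between 189 and 211 to 363, 342 and 269 CPM in proliferating and from 165, 175 and 188 to 577, 528 and 536 CPM in irradiated cells. Its interaction was 0.92 ± 0.15 (edgeR adjusted p = 0.000139), so the rise was larger in the state where most other p53 targets did not rise.

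**Figure D3:**
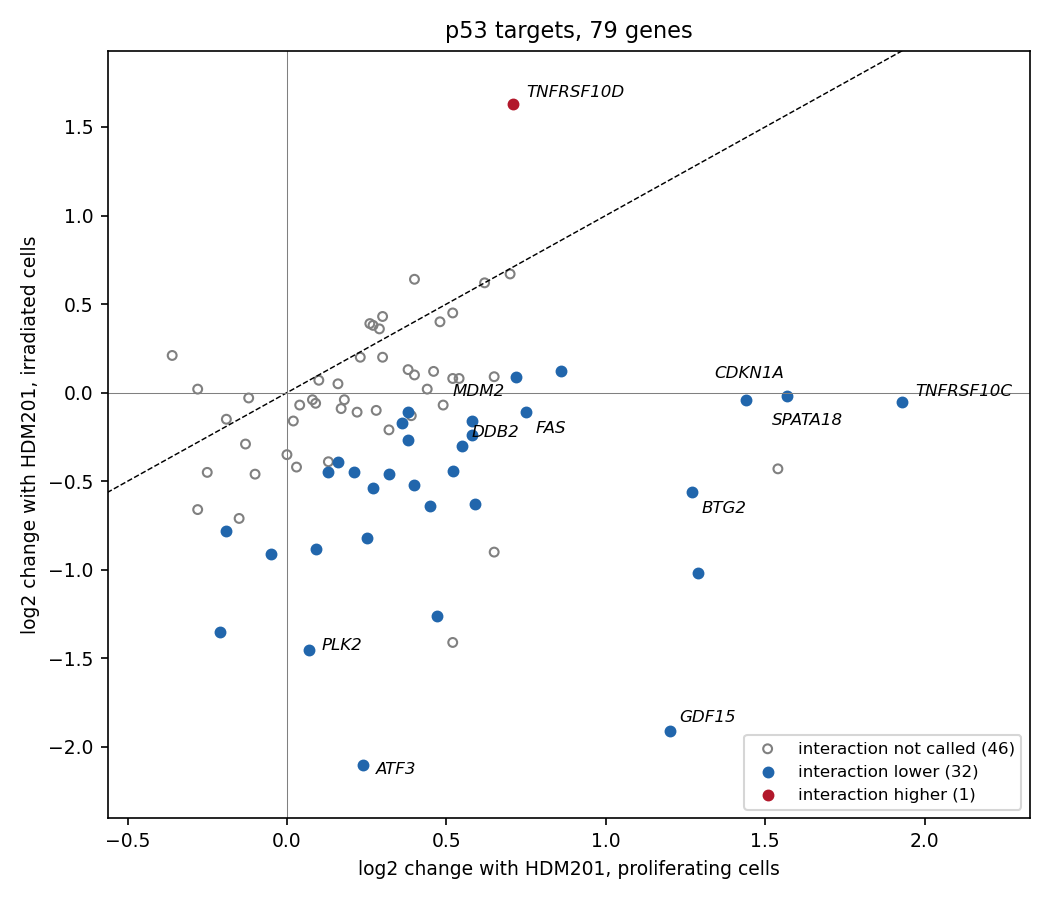
Log2 change with HDM201 in proliferating cells (x axis) and irradiated cells (y axis) for 79 p53 targets, with 32 of lower interaction in blue, 1 of higher interaction (TNFRSF10D) in red and 46 not called as open circles. The dashed line marks equal responses, and most points lie to its right, with CDKN1A and SPATA18 near 0 on the y axis.

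Opposite responses in the same pair of treatments were called for 24 genes. Of these, 20 rose in proliferating and fell in irradiated cells, and 4 did the reverse. All 24 kept both within-state calls and both directions when the 2 libraries that stood apart were left out. The number of such genes fell to 12 and 10 without Prolif_DMSO replicates 1 and 2 and to 14 without either of Prolif_HDM201 replicates 1 and 2, and it was 213 without Prolif_HDM201 replicate 3 and 37 without IR_DMSO replicate 1. GDF15, a stress-induced cytokine and p53 target, went from 10.6, 13.3 and 11.4 CPM to 32.1, 27.6 and 20.8 CPM in proliferating cells and from 406, 314 and 338 CPM to 84.9, 97.7 and 98.3 CPM in irradiated cells. The states were closer together under HDM201 than under DMSO, and the interaction was -3.11 ± 0.19 (SE, edgeR adjusted p = 9.07e-11). BTG2, an antiproliferative p53 target, rose from 3.32, 3.58 and 3.85 to 9.35, 9.18 and 7.38 CPM in proliferating and fell from 42.8, 43.0 and 40.5 to 26.4, 30.8 and 28.4 CPM in irradiated cells.

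The other genes that rose in proliferating and fell in irradiated cells hold a mixture of functions. TFPI2, a secreted protease inhibitor, had an interaction of -2.86 ± 0.14 (edgeR adjusted p = 2.25e-12), with 42.6, 46.5 and 46.6 CPM in Prolif_DMSO, 71.2, 70.0 and 67.2 CPM in Prolif_HDM201, 366, 412 and 393 CPM in IR_DMSO and 92.1, 83.3 and 72.9 CPM in IR_HDM201. The orphan nuclear receptor NR4A2 had -2.99 ± 0.22, VWA5A -3.11 ± 0.18, the lung mesenchyme transcription factor TCF21 -2.07, and the protease PAPPA, which frees insulin-like growth factors from their binding proteins, -1.98 ± 0.25. The secreted WNT antagonist SFRP1 and the metalloprotease ADAMTS1 showed smaller opposite changes, with interactions of -1.10 and -1.24. In SFRP1 the proliferating libraries went from 225, 239 and 227 to 385, 373 and 307 CPM and the irradiated ones from 886, 960 and 1020 to 732, 625 and 704 CPM. The 4 genes that fell in proliferating and rose in irradiated cells were MYH11, the smooth muscle myosin heavy chain, ANO1, a calcium-activated chloride channel, HHIP, a hedgehog-binding protein, and XIRP2, an actin-binding muscle protein. MYH11 was at 19.8, 18.7 and 18.7 CPM in Prolif_DMSO, 8.79, 7.54 and 6.01 CPM in Prolif_HDM201, 5.19, 4.57 and 5.25 CPM in IR_DMSO and 6.89 to 8.44 CPM in IR_HDM201, so that under HDM201 the ranges of both states overlapped.

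**Figure D4:**
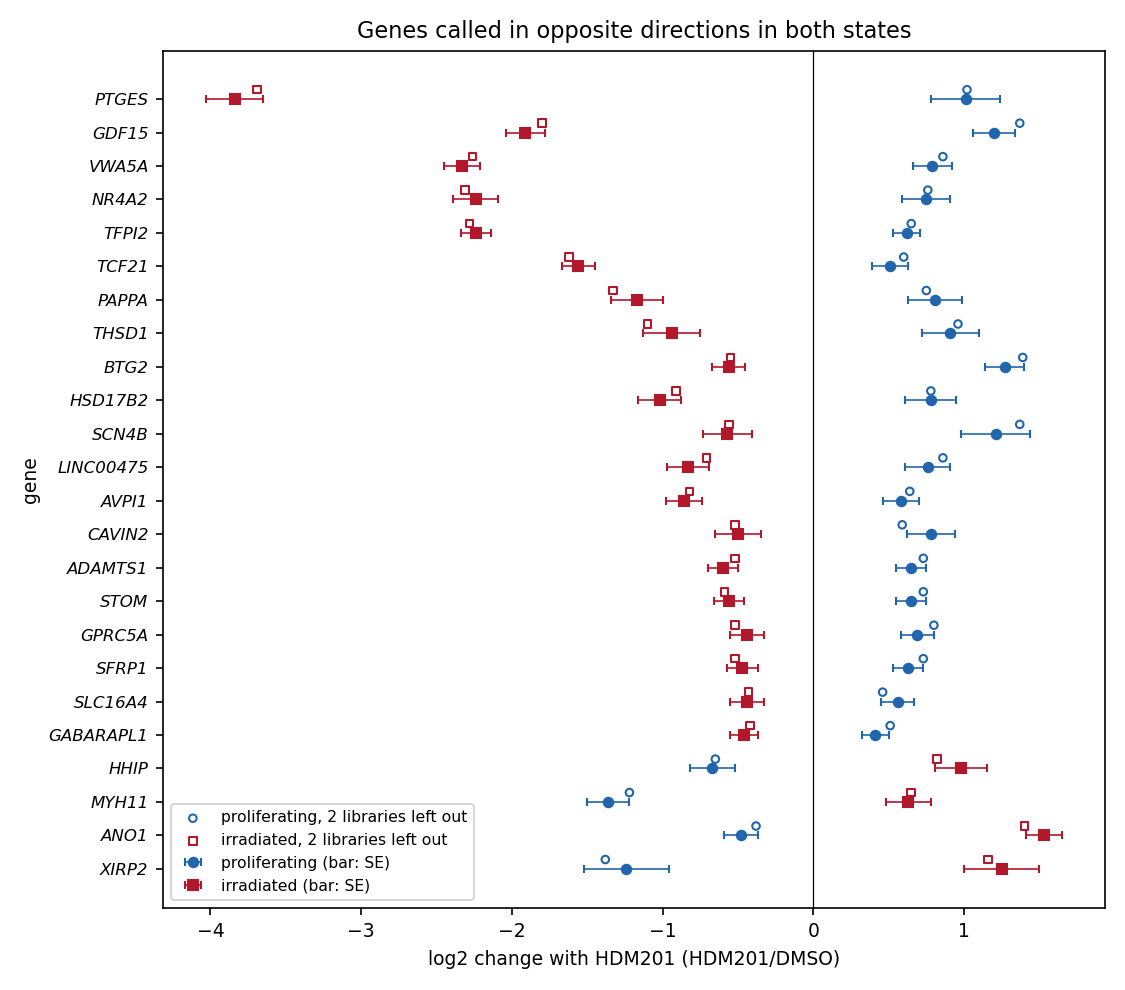
Log2 change with HDM201 (x axis) in proliferating (blue circles) and irradiated cells (red squares) for the 24 genes called in opposite directions, with bars for the SE. Open symbols above each point give the change without Prolif_HDM201 replicate 3 and IR_DMSO replicate 1, and no gene changes side.

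Responses that were called in both states in the same direction but with unequal size included VCAM1, a leukocyte adhesion molecule, which fell from 14.6, 13.3 and 15.2 to 8.34, 9.03 and 8.45 CPM in proliferating and from 176, 139 and 109 to 23.2, 25.1 and 18.3 CPM in irradiated cells (interaction -1.93, edgeR adjusted p = 6.59e-07). PIM1, SLC7A2, RASL12 and TNC also fell in both states, with interactions between -1.93 and -0.60. TNFRSF10D and the histone gene HIST1H2AC rose in both, the latter by 0.99 in proliferating and 0.39 in irradiated cells. Among the 37 genes called in proliferating cells alone, 29 had a lower interaction. Without the 2 libraries that stood apart, WNT16, PSG1, CYFIP2, KCNJ2, DDB2, CLDN1, PHLDA3, RDH10, EDN1 and ELN were also called in irradiated cells. In that fit MED12L lost its interaction call (edgeR adjusted p = 0.114). WNT16, a ligand secreted by damaged fibroblasts, rose from 2.90, 2.93 and 2.76 to 6.88, 5.87 and 8.19 CPM with HDM201 and stood at 52.4 to 69.1 CPM in the irradiated libraries, with an interaction of -1.54 ± 0.17 (edgeR adjusted p = 9.61e-07). The other 8 fell in proliferating cells: MYH10, TRAF5, PTGIS, EDN1, ELN, DES, MED12L and CALM2P3.

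On the higher side, NRXN3, a neuronal adhesion receptor, was at 27.5, 25.1 and 28.1 CPM in Prolif_DMSO, 18.5, 17.3 and 21.9 CPM in Prolif_HDM201, 4.36, 6.78 and 6.30 CPM in IR_DMSO and 20.8, 22.7 and 19.8 CPM in IR_HDM201. The states overlapped under HDM201 and differed under DMSO, and the interaction was 2.34 ± 0.20 (SE, edgeR adjusted p = 2.02e-08), the highest among genes with at least 0.5 CPM in every group and 5 CPM in at least 1. KCNQ5, a potassium channel gene, had 2.24 ± 0.30, ANO1 2.01 ± 0.16 and the signalling regulator RGS4 1.32 ± 0.12. MAP3K7CL and OXTR, the oxytocin receptor gene, were highest in IR_HDM201. MAP3K7CL was at 29.3, 34.7 and 29.7 CPM in Prolif_DMSO, 28.2, 33.9 and 31.4 CPM in Prolif_HDM201 and 28.4, 30.5 and 32.4 CPM in IR_DMSO, 3 groups with overlapping ranges, and at 109, 102 and 105 CPM in IR_HDM201 (interaction 1.79 ± 0.14, edgeR adjusted p = 6.6e-09). OXTR went from 18.2, 17.7 and 19.6 to 81.1, 80.6 and 75.8 CPM in irradiated cells, and stood at 24.5, 25.9 and 24.7 CPM in Prolif_DMSO and 26.7, 26.2 and 40.3 CPM in Prolif_HDM201.

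Contractile and TGF-beta response genes were called in both directions. Of 31 tested contractile and TGF-beta response genes, 8 had a higher and 7 a lower interaction, against a background of 2.97% and 5.67%, with a median of 0.21. ACTA2, smooth muscle actin, was lower in irradiated than in proliferating cells, by less under HDM201, with 1500, 1710 and 1570 CPM in Prolif_DMSO, 1300, 1280 and 948 CPM in Prolif_HDM201, 342, 437 and 440 CPM in IR_DMSO and 692, 866 and 816 CPM in IR_HDM201. The irradiated ranges did not overlap, and the interaction was 1.40 ± 0.18 (SE, edgeR adjusted p = 7.87e-06). CNN1 (calponin) and ACTG2 (enteric smooth muscle actin) each had an interaction of 1.31, TAGLN (transgelin) had 1.17, TPM1 (tropomyosin) 0.68 and MYL9 (myosin light chain) 0.58. DES, the muscle intermediate filament desmin, differed, since it fell in proliferating cells from 25.5, 27.0 and 25.8 to 11.6, 11.1 and 9.34 CPM and had overlapping ranges in irradiated cells. The 7 lower genes were ID1 (-1.50 ± 0.17), ID2 and ID3 (-1.41 ± 0.20), the inhibitory SMAD6 (-1.36 ± 0.20) and SMAD7, SMAD3, and the cardiac actin ACTC1. ID1 is known as a target of BMP signalling. This split was noticed after the values were seen.

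Of 44 collagen and other matrix genes, 6 had a higher (13.6%) and 2 a lower interaction (4.55%), against 2.97% and 5.67% of all genes. Without Prolif_HDM201 replicate 1 the higher count was 9. Elastin (ELN) had 0.96, the crosslinking enzyme LOX 0.91, decorin (DCN) 0.80 ± 0.13 and thrombospondin THBS1 0.70 ± 0.13, whereas COL16A1 had -0.83 ± 0.17 and tenascin TNC -0.60 ± 0.16. TNC lost its call in 10 of 23 alternative fits, DCN in 3 and COL16A1 in 1. The main fibrillar collagens COL1A1, COL1A2 and COL3A1 had 0.16, -0.17 and -0.38, none past the test.

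Mitosis genes fell in irradiated cells, and their count in proliferating cells turned on the libraries that stood apart. Of 57 mitosis genes, 45 fell and 1 rose in irradiated cells, 2 fell in proliferating cells, and 15 had a lower interaction (26.3%). None of the 57 had a positive change in proliferating cells, called or not, against 9172 of all 18151 genes. The median change was -0.31 in proliferating and -0.8 in irradiated cells, so the direction was shared by both states. Over all genes 11.3% fell and 9.96% rose in irradiated cells, 0.154% fell in proliferating cells, and 5.67% had a lower interaction. The count of 15 was 8 without IR_HDM201 replicate 3 and 9 without either Prolif_DMSO replicate 1 or IR_HDM201 replicate 2. Without both libraries that stood apart, 49 fell in irradiated cells, 32 in proliferating cells, and the interaction was lower for 17 and higher for 2. Among all 18341 genes of that fit, 1244 fell in proliferating cells, 1779 were lower and 1542 higher. KIF20A, a kinesin of cell division, was at 12.4, 16.8 and 17.4 CPM in IR_DMSO and 5.23, 2.94 and 3.38 CPM in IR_HDM201, and at 199, 214 and 210 CPM in Prolif_DMSO and 179, 189 and 160 CPM in Prolif_HDM201. Its interaction of -1.71 ± 0.22 (edgeR adjusted p = 1.28e-05) compared a large relative change at a low level with a small one at a high level: on the CPM scale the proliferating change was the larger. In bulk RNA, fewer dividing cells and less RNA per dividing cell cannot be told apart. BIRC5 (survivin) had -1.31 ± 0.17, KIF4A -1.10 ± 0.20 and CDC20, whose promoter is shown above, -0.95. MKI67 had -0.57 ± 0.50 (adjusted p = 0.576), with Prolif_HDM201 replicate 3 at 508 CPM. Of 51 replication and E2F genes, 12 fell and 1 rose in irradiated cells, and 4 had a lower interaction (7.84%, near the 5.67% of all genes), or 7 without Prolif_HDM201 replicate 3. The 4 include RRM2 (-0.87 ± 0.18), the ribonucleotide reductase subunit, and TYMS (-0.68 ± 0.16), thymidylate synthase.

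DNA repair genes were counted in 2 lists. Of 38 genes of homologous recombination and the Fanconi anemia pathway, 1 was lower (2.63%, against 5.67% of all genes), RAD51B, with -0.81 ± 0.24, a call lost in 15 of 23 alternative fits. Of 26 end joining genes 3 were higher (11.5%, against 2.97%) and 1 lower (3.85%). XRCC4, the partner of DNA ligase IV, was at 11.8, 10.3 and 10.8 CPM in IR_DMSO and 24.6, 26.9 and 25.1 CPM in IR_HDM201, with 8.79 to 15.0 CPM in the proliferating libraries and an interaction of 1.25 ± 0.22 (edgeR adjusted p = 0.000377). SHLD2, of the shieldin complex, had 0.92 ± 0.19, lost in 1 of 23 alternative fits. TP53BP1, the damage adaptor 53BP1, had -0.55 ± 0.14, lost in 4 of 23. TDP1, a DNA end processing enzyme, had 0.59 ± 0.16, lost in 7 of 23. The end joining counts were 2 higher and 0 lower without Prolif_DMSO replicate 2, 2 higher without Prolif_DMSO replicate 3, 0 lower without IR_HDM201 replicate 2, and 4 higher and 2 lower without Prolif_HDM201 replicate 3. Leaving out both libraries that stood apart gave 5 higher and 0 lower genes for homologous recombination, and 17 of the 38 then fell in proliferating cells. Among all 18341 genes of that fit, 1542 were higher, 1779 lower and 1244 fell in proliferating cells.

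**Figure D5:**
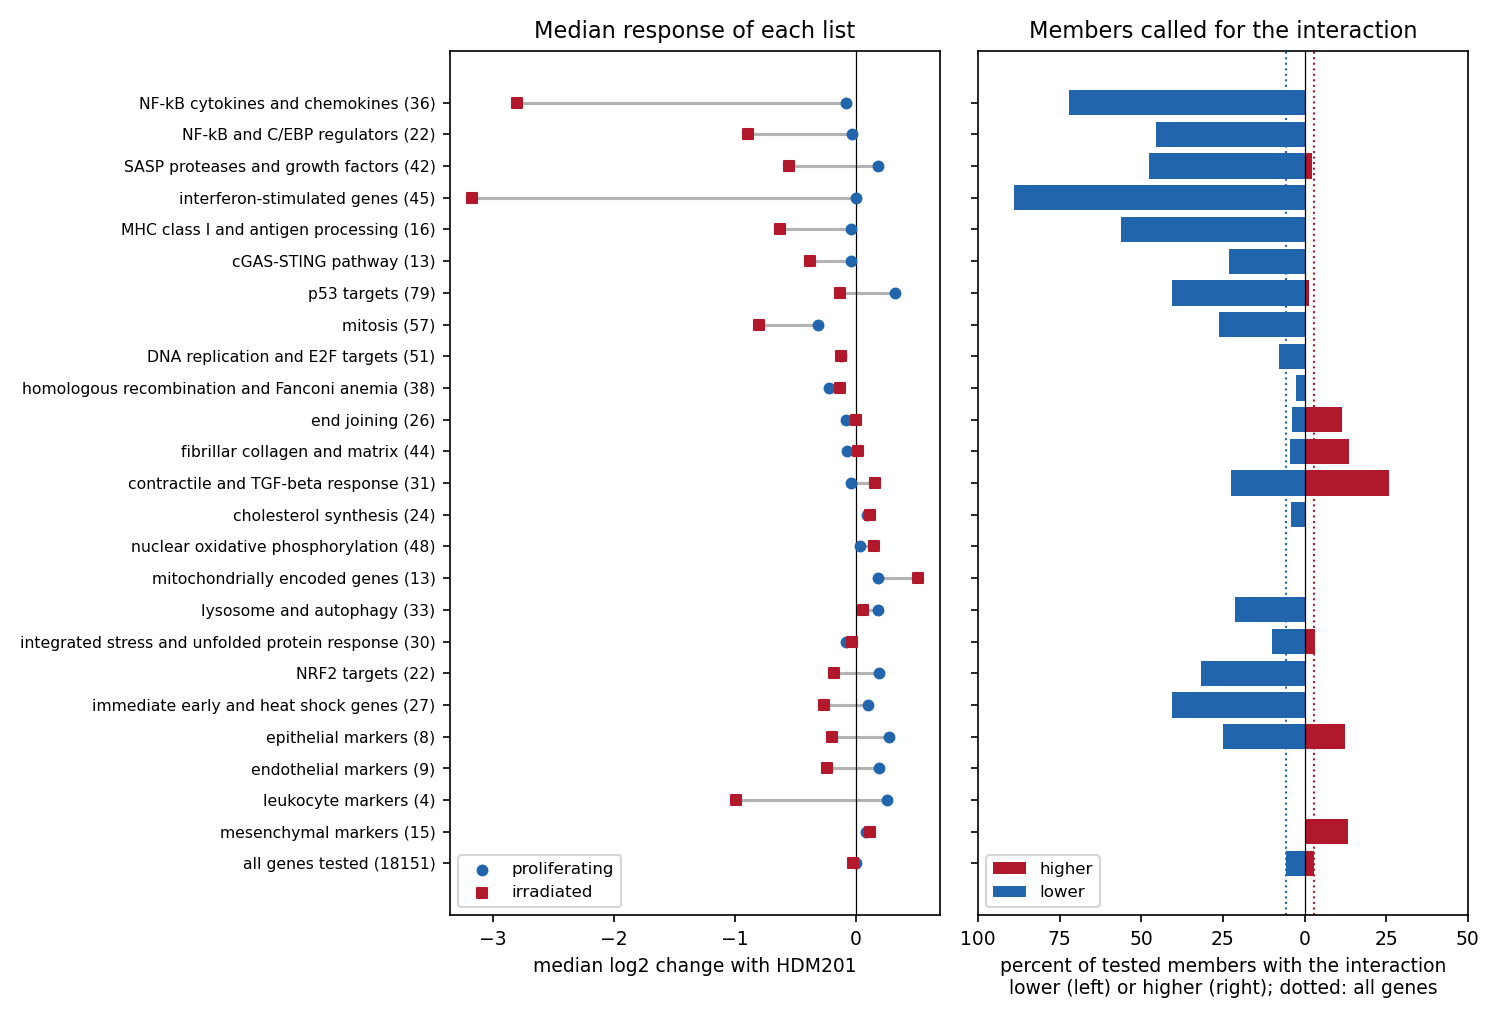
Left, the median log2 change with HDM201 of each of 24 gene lists in proliferating (blue circles) and irradiated cells (red squares), with the number of tested genes in brackets. Right, the percent of tested members with a lower (left of 0) or higher (right of 0) interaction, with dotted lines at 5.67% and 2.97% for all genes. The interferon-stimulated and NF-kB lists lie farthest from 0 in irradiated cells and near 0 in proliferating cells.

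Stress and metabolic genes varied by pathway. Of 22 targets of NRF2, the antioxidant transcription factor, 7 had a lower interaction (31.8%, against 5.67% of all genes) and 0 a higher. They were led by the aldo-keto reductases AKR1C1 (-2.78 ± 0.24) and AKR1B1 (-2.49 ± 0.15). The count was 11 without Prolif_HDM201 replicate 3 and 13 without both libraries that stood apart. Over all genes, those fits called 1535 of 18771 and 1779 of 18341 lower. AKR1B1 was at 736 ± 61.5 CPM in IR_DMSO and 168 ± 22.3 CPM in IR_HDM201 (SD, n = 3), with 106 to 152 CPM in proliferating cells. NQO1, a quinone reductase, differed in that it was not high in IR_DMSO, with 81.0, 91.9 and 84.3 CPM in Prolif_DMSO and 73.1, 69.3 and 62.9 CPM in IR_DMSO, and it stood at 27.9, 33.7 and 25.8 CPM in IR_HDM201 (interaction -1.44 ± 0.15). Of 33 lysosome and autophagy genes 7 were lower (21.2%, against 5.67% of all genes). They include the cholesterol exporter NPC1 (-1.75 ± 0.16), the cathepsins CTSS (-3.01 ± 0.37) and CTSK (-1.36 ± 0.15) and the autophagy receptor SQSTM1 (-1.22 ± 0.18). Without both libraries that stood apart 12 of these 33 genes were lower and 2 higher. Of 30 genes of the integrated stress and unfolded protein responses 3 were lower (10%) and 1 was higher (3.33%), against 5.67% and 2.97% of all genes. Without Prolif_HDM201 replicate 3 the counts were 6 and 2. Cholesterol synthesis held 1 lower gene of 24 (INSIG1, -1.06 ± 0.19), a share of 4.17% that is near the 5.67% of all genes. Without Prolif_HDM201 replicate 3 it held 4 lower and 1 higher. None of 48 nuclear genes of oxidative phosphorylation or 13 mitochondrially encoded genes was called by edgeR, with 5 and 0 at an unadjusted p under 0.05 and 1 and 0 called by DESeq2. For the latter, IR_DMSO replicate 1 widened the error, and the median moved from 0.37 to -0.18 without the libraries that stood apart, with 2 then called lower.

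Immediate early and heat shock genes also respond to handling of cells. Of 27 tested, 11 had a lower (40.7%, against 5.67% of all genes) and 0 a higher interaction, with a median of -0.21. In irradiated cells 11 of them fell and 6 rose, against 11.3% and 9.96% of all genes. FOS was at 3.08, 3.13 and 3.82 CPM in IR_DMSO, 0.243, 0.527 and 0.444 CPM in IR_HDM201 and 1.64 to 3.20 CPM in proliferating cells (interaction -3.12 ± 0.40, edgeR adjusted p = 9.3e-06), and IER3, an NF-kB target as well, had -2.29 ± 0.18. JUN and MYC had -0.08 and 0.35, with adjusted p = 0.81 and 0.233. Their part in the inflammatory results was not tested. Of 8 epithelial markers tested, KRT18 was higher (1.07 ± 0.17) and CLDN7 (-1.77 ± 0.41) and KRT7 (-0.86 ± 0.21) were lower. CLDN7 was at 0.547 to 2.1 CPM and lost its call in 3 of 23 alternative fits. None of 9 endothelial or 4 leukocyte genes was called by edgeR or DESeq2, with 1 of each at an unadjusted p under 0.05. Of 15 mesenchymal markers VIM (0.51 ± 0.15, lost in 7 of 23 alternative fits) and DCN (lost in 3 of 23) were higher.

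Position and promoter letters described the called genes in terms that the rule did not use. Among 13972 tested protein-coding genes in chromosome order, 17 runs of at least 3 neighbours had a lower interaction throughout, with 58 genes in all, and 6 runs with 21 genes had a higher interaction. Of the same 13972 genes, 929 had a lower and 496 a higher interaction. How many runs such numbers give without clustering was not tested. The longest run was the chemokine cluster on chromosome 4, from 73740519 to 74099196 (hg38), with CXCL8, CXCL6, CXCL1, CXCL5, CXCL3 and CXCL2 between -8.72 and -5.24. The other lower runs of 4 were CLEC2B, OLR1, TMEM52B and GABARAPL1 on chromosome 12, IFIT2, IFIT3, IFIT1 and IFIT5 on chromosome 10, TAP2, PSMB8, PSMB9 and TAP1 on chromosome 6, and IL1R1, IL1RL2, IL1RL1 and IL18R1 on chromosome 2. The longest run on the higher side was TES, CAV2, CAV1, MET and CAPZA2 on chromosome 7, with 0.43 to 1.23, followed by a run of 4 on chromosome X, AP1S2, GRPR, CTPS2 and SYAP1. Paralogs in these clusters can share reads, and how the counting treated such reads is not stated.

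A RefSeq promoter of 300 bases, from 250 before to 50 after the start, was matched by symbol for 11692 tested genes. The ISRE letters lay in 62 of 715 promoters of genes with a lower interaction (8.67%), in 7 of 410 with a higher interaction (1.71%) and in 345 of all 11692 (2.95%). In the ISG list 22 of 34 promoters (64.7%) held it. The NF-kB motif was in 19.3% of promoters on the lower side, 14.6% on the higher side and 15.8% of all, and in 13 of 27 promoters (48.1%) of the NF-kB cytokine list. The letters TATAAA were in 12.3% on the lower side, 4.15% on the higher side and 6.09% of all. The p53 half-site was in 6.29%, 5.12% and 5.45%, the CArG box in 1.54%, 1.95% and 1.11%, TTTGAA in 12.4%, 9.27% and 9.86%, CCAAT in 35.4%, 34.1% and 36.2%, and the E2F motif (TTTNNCGC, with each N a C or a G) in 3.92%, 4.63% and 5.14%. Within the p53 target list the half-site lay in 6 of 66 promoters (9.09%). In the contractile and TGF-beta response list the CArG box lay in 4 of 27 (14.8%). TTTGAA lay in 33 of 49 promoters of the mitosis list (67.3%). Both strands were searched, a base could count for more than one motif, and no test was run.

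The counts of 0 on the higher side come from edgeR. At an unadjusted p under 0.05, higher genes numbered 1 for the NF-kB cytokines, 1 for mitosis, 1 for lysosome and autophagy, 1 for cholesterol synthesis, 3 for immediate early and heat shock genes, 3 for replication, 2 for homologous recombination and 0 for the NF-kB regulators, ISGs, MHC class I, cGAS-STING and NRF2 lists. DESeq2 called 3 higher immediate early and heat shock genes, 1 mitosis gene and 1 cholesterol gene, and 0 in the other lists named in this way.

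RG7388, the other MDM2 inhibitor of the series, was given at a different concentration according to the study's methods, so its values stand beside those of HDM201 without a comparison, and both share the DMSO libraries. Its interaction was -5.58 for CXCL8, -4.41 for IL6, -3.67 for IFIT2, -4.15 for PTGES, -1.48 for CDKN1A, -3.25 for GDF15, 1.10 for TNFRSF10D, 1.47 for ACTA2, 2.49 for MYH11 and 2.03 for NRXN3. The corresponding values with HDM201 were -5.24, -4.27, -3.94, -4.85, -1.48, -3.11, 0.92, 1.40, 1.99 and 2.34.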

How the data were processed

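RNA was measured in IMR90 fibroblasts as polyA libraries. Per the labels and the authors' methods, reads were aligned to hg38 with STAR, and HTSeq gave the deposited counts, unscaled, and Cufflinks the deposited FPKM values (scaled to transcript length and library size). For versions, the annotation release, strand and reads shared by paralogs, nothing is given in the sources used. Groups came from the labels. The genes, lists and tests were chosen with earlier results of these data known.

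Genes passing edgeR's filterByExpr were scaled by TMM and fitted with edgeR 4.0.16 (R 4.3.3) over 18 libraries with 6 group means and robust quasi-likelihood, leaving 12 residual degrees of freedom. The fit used all groups because they share an estimate of the spread. P-values are two-sided and adjusted by Benjamini and Hochberg over 18151 genes, with a threshold of 0.05, and SEs are the log2 change divided by the square root of F. CPM values use TMM-scaled totals. The second copies of 45 pseudoautosomal genes were left out. Coordinates come from GENCODE 44 (99.46% of IDs matched) and promoters from RefSeq. Same-numbered libraries of different groups were not paired in the fit: 5 of 18 such pairs had deviations correlated above 0.1, against 5 of 36 other pairs.

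Named genes were a fixed panel, the 10 largest and the smallest p in each direction with at least 0.5 CPM in each of 4 groups and 5 CPM in 1, up to 8 genes of each orientation of the opposite pattern and up to 6 of each direction of the proliferating-only pattern, the leading members of 24 gene lists and genes low in proliferating cells, 145 in all. Other members of a list or pattern are named after their values were seen. Alternatives used DESeq2 1.42.0 and limma 3.58.1 (on log2 FPKM with a pseudocount of 1 or 0.1), other scalings and filters, a replicate block and fits without libraries. The fit was tested on simulated counts with known interactions before use. A few genes are not reported here.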

Additional observations from a re-analysis of the deposited data

Results flagged for a closer look

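The responses to HDM201 in both states differed by the test of the interaction for 1568 genes, and the report describes them by group. The genes below are 13 of the 24 that HDM201 moved in opposite directions in both states, each direction called by edgeR, those that the rule for named genes took. It allowed up to 8 for each orientation by the smaller of both responses, above a minimum level, and other parts of the rule added the rest. The interaction (log2) of the genes that rose in proliferating and fell in irradiated cells was -4.85 for PTGES, -3.11 for VWA5A, -3.11 for GDF15, -2.99 for NR4A2, -2.86 for TFPI2, -1.98 for PAPPA, -1.85 for THSD1, -1.83 for BTG2, -1.81 for HSD17B2 and -1.59 for LINC00475. In the opposite sense it was 1.65 for HHIP, 1.99 for MYH11 and 2.01 for ANO1. THSD1, a membrane protein with thrombospondin repeats, was at 2.36, 2.80 and 3.53 CPM in Prolif_DMSO and 4.71, 6.36 and 5.16 CPM in Prolif_HDM201, and at 5.70, 8.20 and 8.13 CPM in IR_DMSO and 3.47, 4.70 and 3.38 CPM in IR_HDM201. HSD17B2, a steroid dehydrogenase, was at 2.02 to 2.37 and 3.52 to 3.81 CPM in proliferating cells and at 18.4 to 23.7 and 9.11 to 10.8 CPM in irradiated cells, in the order DMSO and HDM201. HHIP was at 19.5 to 22.1 and 13.1 to 13.7 CPM in proliferating cells and at 2.04 to 3.37 and 4.30 to 5.73 CPM in irradiated cells, with no overlap between DMSO and HDM201 in either state. The interaction call of HHIP was lost in 3 of 23 alternative fits and that of LINC00475 in 1.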

How the results depend on the processing

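The interaction was called for 539 higher and 1029 lower genes, a response for 3861 genes in irradiated and 127 in proliferating cells, and opposite responses for 24 genes. An adjusted p of 0.01 gave 233 higher, 585 lower, 2211 irradiated, 47 proliferating and 9 opposite genes, and a 2-fold minimum gave 135, 634, 1160, 33 and 3. With library totals in place of TMM there were 322 higher, 1735 lower and 48 opposite genes. A fit of the 12 libraries alone gave 282 higher, 40 proliferating and 10 opposite genes. DESeq2 gave 304 proliferating and 66 opposite genes and called 1566 of the 1568 interaction genes. On log2 FPKM, limma called 233 higher genes with a pseudocount of 1, 222 with 0.1 and 167 with no filter, with 74 proliferating genes at a pseudocount of 1 and 55 proliferating and 12 opposite genes with no filter. It shared 886 of the 1568 genes at a pseudocount of 1, with 8 of the 1568 of the other sign. Without IR_DMSO replicate 1 and Prolif_HDM201 replicate 3 together there were 1542 higher, 1779 lower, 2833 proliferating and 332 opposite genes. Leaving out each library in turn gave 336 to 1408 higher, 791 to 1535 lower, 3024 to 5110 irradiated, 43 to 1672 proliferating and 10 to 213 opposite genes. The proliferating count was 43, 57 and 59 without Prolif_DMSO replicates 1, 2 and 3, 59, 54 and 1672 without Prolif_HDM201 replicates 1, 2 and 3, and 192 without IR_DMSO replicate 1. The higher count was 336 without Prolif_DMSO replicate 3 and 1408 without Prolif_HDM201 replicate 3. Opposite genes numbered 12, 10, 14, 14, 213 and 37 without Prolif_DMSO replicate 1 or 2, Prolif_HDM201 replicate 1, 2 or 3, and IR_DMSO replicate 1. The cause was not tested.

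The replicate numbers were not used to pair the libraries. Correlations between same-numbered deviations were -0.21 to 0.18, and 6 of 12 libraries were closest to their own number. A batch shared by replicate number is not excluded by these values. With the replicate block, the interaction was called for 538 higher and 985 lower genes and 116 genes responded in proliferating cells. Of 115 named genes called for the interaction, 90 kept the call in each alternative fit that could be run and 25 lost it in at least 1, none with the opposite sign. Genes near or below 1 CPM have wide errors, and their fitted changes depend on few counts.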

Other observations

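Transcripts outside the lists also depended on state. EDNRB, the endothelin B receptor gene, was at 20.5, 24.3 and 21.6 CPM in IR_DMSO and 2.01, 1.19 and 1.02 CPM in IR_HDM201, against 1.98 to 4.11 CPM in the proliferating libraries, with an interaction of -4.00 ± 0.38 (SE, edgeR adjusted p = 3.53e-07). EDN1, which encodes a ligand of that receptor, had an interaction of 0.93 ± 0.19 (edgeR adjusted p = 0.00255), with 10.0 to 10.5 CPM in Prolif_DMSO, 5.55 to 7.16 CPM in Prolif_HDM201 and overlapping ranges in irradiated cells. C11orf96 was at 37.8, 16.9 and 15.0 CPM in IR_DMSO and 1.02, 2.24 and 1.38 CPM in IR_HDM201 (interaction -4.83 ± 0.53). A water channel and a urea transporter, chosen after their values were seen, lay on the higher side. AQP1, the water channel aquaporin-1, was at 2.42 to 3.71 CPM in all proliferating libraries, 4.19 to 6.38 CPM in IR_DMSO and 14.4 to 15.7 CPM in IR_HDM201 (interaction 1.81 ± 0.22, edgeR adjusted p = 4.22e-06). SLC14A1, a urea transporter, was at 15.7 ± 0.439 CPM in Prolif_DMSO and 13.2 ± 1.25 CPM in Prolif_HDM201 (SD, n = 3), 4.23 to 10.3 CPM in IR_DMSO and 21.4 to 25.3 CPM in IR_HDM201 (interaction 1.85 ± 0.28).

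Long noncoding RNAs were 81 of the 1029 genes of lower interaction (7.89%) and 29 of the 539 of higher interaction (5.39%), against 14.7% of all genes tested, each a percent of the genes with an annotated biotype. RGMB-AS1 was at 66.0 to 67.3 CPM in Prolif_DMSO, 53.7 to 55.2 CPM in Prolif_HDM201, 13.4 to 21.3 CPM in IR_DMSO and 43.5 to 57.7 CPM in IR_HDM201, with an interaction of 1.84 ± 0.19 (edgeR adjusted p = 4.85e-07). It is antisense to RGMB, and whether the counting used strand is not stated, so reads of both genes may not be told apart.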
